A study of Mus musculus with 55 samples.

Results

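A set of 10 heart muscle genes was followed through 55 mouse lungs, each lung on an array of its own. They are Nppa, Myl7, Myl4, Sln, Myh6, Actc1, Tnnt2, Tnni3, Ryr2 and Pln, and they are 10 of the 18193 genes with a probe set of their own on the Mouse 430 2.0 array. A probe set was taken when its annotation carried 1 of these symbols and no other, which gave 18 probe sets of 45037. Another 2 probe sets name Myh6 together with Myh7 and were left out. The set was chosen by measured values, after the log2 value of Nppa had been seen among those higher in mice drinking 10 ppb arsenite on the AIN-76A diet. That comparison is therefore given as a description, with no test.

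All mice were male C57BL/6 mice, 6 weeks old, that were kept on their diet for 2 weeks before treatment began. On the purified AIN-76A diet (AIN), 5 mice received 10 ppb sodium arsenite in food, 4 received 10 ppb in drinking water and 4 received 100 ppb in drinking water for 5 weeks, and 5 were controls. On the LRD-5001 diet (LRD), a standard chow, 5 mice received 10 ppb in food, 5 received 10 ppb in water and 3 received 100 ppb in water, and 4 were controls. Another set of AIN-fed mice was killed 8 hours after an intraperitoneal injection of 1 mg/kg dexamethasone with 1 mg/kg sodium arsenite (Dex+As), dexamethasone alone (Dex), sodium arsenite alone (As) or saline, with 5 mice in each of these groups. Mice are named here by their group and the letter of the label.

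In the mouse, striated heart muscle runs from the left atrium along the wall of the pulmonary veins into the lung, so a whole lung carries some cardiomyocytes of its own. These cells beat, store atrial natriuretic peptide and resemble atrial rather than ventricular muscle. Atrial and ventricular cardiomyocytes share most of the sarcomere but differ in their myosin light chains and peptide hormones. Nppa encodes atrial natriuretic peptide, Myl7 and Myl4 the atrial regulatory and essential myosin light chains, and Sln sarcolipin, a small inhibitor of the calcium pump of the sarcoplasmic reticulum. The other members are used in both chambers of the adult mouse heart. Myh6 encodes the alpha myosin heavy chain, Actc1 cardiac actin, Tnnt2 and Tnni3 the cardiac troponins T and I, Ryr2 the calcium release channel and Pln phospholamban, another inhibitor of the calcium pump. Myl2, Myl3 and Nppb (ventricular light chains and the B-type natriuretic peptide) serve as the ventricular counterpart.

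The values are log2 signals (RMA), 1 array per mouse, and the number of arrays limits their precision. A single probe set cannot be compared in level with another, so genes were compared by how they varied across mice. In 3 arrays (AIN 100 ppb water B, As E and LRD 10 ppb water C) the interquartile range of all probe sets was 1.80 to 3.31, against 3.51 to 3.94 in the other 52. These 3 low-quality arrays were kept out of the fits and are given apart. Some lungs also carried RNA typical of other tissues: 9 of the 52 mice stood above 7 in Myl2, in the skeletal actin gene Acta1 or in the thymocyte gene Rag1. They were LRD control A, AIN control E, Dex A and C, LRD 10 ppb food B, AIN 10 ppb food F, AIN 10 ppb water A and E, and saline E. In whole tissue, fewer cardiomyocytes in the sample and less RNA per cardiomyocyte cannot be told apart.

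The brightest probe set of each gene is the one described. Of the 10 genes, 8 stood above a log2 value of 5 in all 52 mice and Nppa in 44. Ryr2, with a highest value of 7.20, passed 5 in 17 mice. Of the 8 other probe sets, 3 were bright (1 for Tnnt2 and 2 for Pln) and followed the brightest one across the mice with r of 0.969 to 0.995. The other 5, for Myl4, Sln, Myh6, Tnnt2 and Ryr2, never passed 5 in any of the 52 mice.

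The members varied widely between mice that had been treated alike. The SD between mice of a group, pooled over the 12 groups, was 2.30 for Nppa, which only 1 of the 45037 probe sets exceeded. It was 1.32 for Sln, 1.13 for Tnni3, 1.10 for Pln, 1.07 for Myh6, 1.05 for Myl4, 1.04 for Myl7, 0.99 for Tnnt2, 0.85 for Ryr2 and 0.69 for Actc1, against a median of 0.20 over all probe sets. All 10 genes lay in the widest 5% and 9 in the widest 1%, Actc1 being the exception. Genes with a wide spread between mice need large differences between groups before a test can see them.

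**Figure D1:**
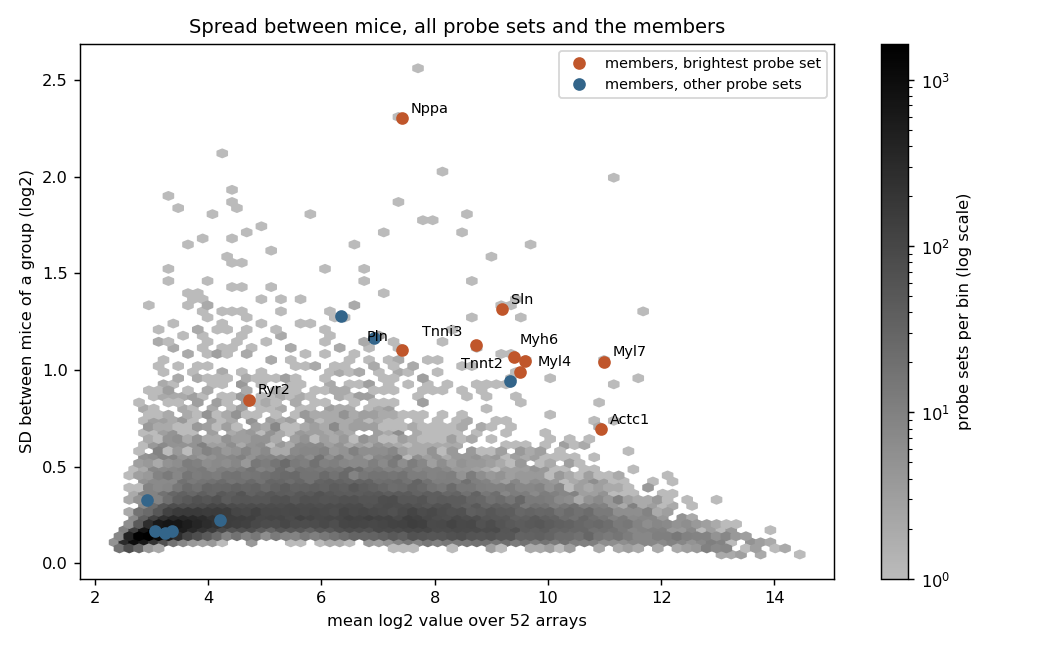
SD between mice of a group (vertical axis, log2 units) against the mean log2 value over 52 arrays (horizontal axis); grey cells are all 45037 probe sets, shaded by their number on a log scale, and the coloured dots are the 18 probe sets of the members. Nppa, at 2.30, stands far above the cloud, and the 5 dim member probe sets lie inside it.

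Of the atrial genes, Nppa had the widest range, 3.75 to 13.48 with a median of 7.28 over the 52 mice. Sln ranged over 5.72 to 12.06, Myl7 over 8.38 to 13.21 and Myl4 over 7.30 to 11.97. Among the genes of both chambers Actc1 had the narrowest range, 9.34 to 12.42, and Myh6 ranged over 6.91 to 12.38, Tnni3 over 5.96 to 11.26, Tnnt2 over 7.10 to 12.06 and Pln over 5.02 to 10.58. The same mice stood at the ends for most genes. LRD control A and Dex C were among the 3 highest mice for all 10 members. As F was among the 3 lowest for all 10 and LRD 100 ppb water C for 9.

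On the AIN diet, Nppa was 6.92, 8.37, 7.07, 8.31 and 4.10 in mice B to F given 10 ppb in food, against 9.48, 7.25, 7.36, 4.12 and 5.09 in AIN controls A, C, D, E and F. Myl7 was 10.56, 11.28, 11.51, 10.97 and 8.80 in the food mice, against 12.10, 10.51, 11.28, 10.44 and 9.90 in the controls. The groups overlapped for all 10 genes. Differences, food minus control, ran from −0.35 for Sln to 0.30 for Nppa, 5 of the 10 were above 0, and none passed the test (limma adjusted p = 1 for each, with 0 members at an unadjusted p under 0.05). The background was likewise 0% of 45037 probe sets called.

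With 10 ppb in water Nppa was 11.04, 6.90, 8.09 and 10.79 in AIN mice A, C, D and E, against the same 5 controls at 4.12 to 9.48. Myl7 was 12.11, 11.12, 11.08 and 11.08 in the water mice, against 9.90 to 12.10 in the controls. Water mice A and E exceeded every control in Nppa, and mouse A stood about 1 log2 unit above its group in Myl7. The differences, water minus control, were 2.54 for Nppa and 0.14 to 0.88 for the other 9 genes, all above 0. They are given as a description, since this comparison led to the choice of genes; 0% of all probe sets were called in it. Both high mice also carried tissue markers. Mouse A had Acta1 at 12.35 and the fat hormone gene Adipoq at 11.99, against 3.56 to 9.62 and 4.52 to 8.11 in the controls. Mouse E had Rag1 at 11.49, against 2.65 to 3.13 in the controls. It also had Nppb at 5.46, against 3.31 to 3.62, while its Myl7 lay inside the range of the controls. Saline E, with Rag1 at 9.98, had Nppa at 5.47. Without these mice, and without AIN control E (Acta1 at 9.62, Nppa at 4.12), the Nppa difference was 0.20. That value rests on water mice C and D alone. The part of other tissues in the Nppa difference was not tested.

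With 100 ppb in water Nppa was 10.57, 4.97 and 7.74 in AIN mice A, C and D, against 4.12 to 9.48 in the 5 controls, and Myl7 was 12.32, 9.82 and 10.82, against 9.90 to 12.10. Mouse A stood above the controls and mouse C near their lower end. The differences, water minus control, ran from 0.01 for Actc1 to 1.10 for Nppa, and no member passed (limma adjusted p = 1; 0% of all probe sets called; 0 members at an unadjusted p under 0.05). Without mouse A the Nppa difference turned to −0.30 and the median of the members to −0.41. The low-quality array of mouse B read 6.50 for Nppa and 9.34 for Myl7.

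On the LRD diet the members were lower on average in each arsenite group than in the controls, but none of these differences passed the test and much of each rested on 1 control mouse. Nppa was 11.23, 4.69, 8.59, 6.64 and 4.84 in mice B to F given 10 ppb in food, against 13.48, 8.40, 7.35 and 7.63 in LRD controls A, C, E and F. Myl7 was 11.72, 10.39, 11.43, 11.20 and 10.52 in the food mice, against 13.21, 11.42, 11.20 and 10.80 in the controls. Over the 52 arrays of good quality, control A was the highest mouse in 9 of the 10 genes. The differences, food minus control, were −2.02 for Nppa and −0.86 to −0.37 for the others. Without control A the Nppa difference was −0.59 and the median of the members −0.09, against −0.72 with it. Food mouse B, at 11.23 the highest of its group in Nppa, had Acta1 at 12.00, and without it the Nppa difference was −3.03.

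With 10 ppb in water Nppa was 6.14, 6.92, 6.21 and 8.98 in LRD mice A, B, D and E, against 7.35 to 13.48 in the 4 controls. Myl7 was 9.91, 10.85, 11.29 and 11.50 in these mice, against 10.80 to 13.21 in the controls. Water mice A, B and D lay below every control in Nppa, while in Myl7 only mouse A did. The differences, water minus control, were −2.16 for Nppa and −1.12 to −0.47 for the others (limma adjusted p = 1.00 for each). Without control A they shrank to −0.73 for Nppa and to a median of −0.26 for the members, against −0.98 with it.

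The 100 ppb water group had the lowest mean of the 12 groups for all 10 members. In it Nppa was 3.75, 8.02 and 6.30 in LRD mice C, D and F, against 13.48, 8.40, 7.35 and 7.63 in controls A, C, E and F. Myl7 was 8.38, 11.52 and 10.61, against 13.21, 11.42, 11.20 and 10.80. Mouse C was far below the controls and mouse D lay among them. Mouse F lay below every control in all members but Myh6 and Ryr2, though by less than mouse C. The differences, water minus control, were −3.19 for Nppa (95% interval −6.58 to 0.19), −1.81 for Pln (−3.43 to −0.19), −1.78 for Sln, −1.59 for Myh6 (−3.16 to −0.02), −1.49 for Myl7 (−3.03 to 0.04) and −0.69 for Actc1. Pln and Myh6 had unadjusted p of 0.0297 and 0.0478, and both had an adjusted p of 1 (limma). The median over the members was −1.47, and it was −0.85 without control A and −0.72 without mouse C. In all 3 LRD comparisons 0% of the 45037 probe sets were called.

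The effect of arsenite was also compared between the diets, for 100 ppb in water and for 10 ppb in food. For 100 ppb in water the LRD effect minus the AIN effect was −4.30 for Nppa (95% interval −8.98 to 0.38) and −2.14 to −0.70 for the other 9 genes, with adjusted p of 1.00 for each (limma). For 10 ppb in food it was −2.31 for Nppa and −0.97 to −0.38 for the others (adjusted p = 1). All 20 differences were below 0, none passed, and 0% of all probe sets were called in either test. Both tests contain LRD control A, and without it the medians of the members were −1.11 for water and −0.01 for food.

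The diets themselves were compared in the untreated mice. Nppa was 13.48, 8.40, 7.35 and 7.63 in LRD controls, against 9.48, 7.25, 7.36, 4.12 and 5.09 in AIN controls. The means were 9.22 ± 2.88 (SD, n = 4) and 6.66 ± 2.10 (SD, n = 5). The differences, LRD minus AIN, were 2.56 for Nppa and 0.40 to 0.95 for the others, all above 0. The AIN controls also entered the comparison that led to the choice of genes. None passed (limma adjusted p = 1.00; 0 members at an unadjusted p under 0.05), against 0.0133% of all probe sets. Without LRD control A the Nppa difference was 1.14 and the median of the members 0.20, against 0.85.

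**Figure D2:**
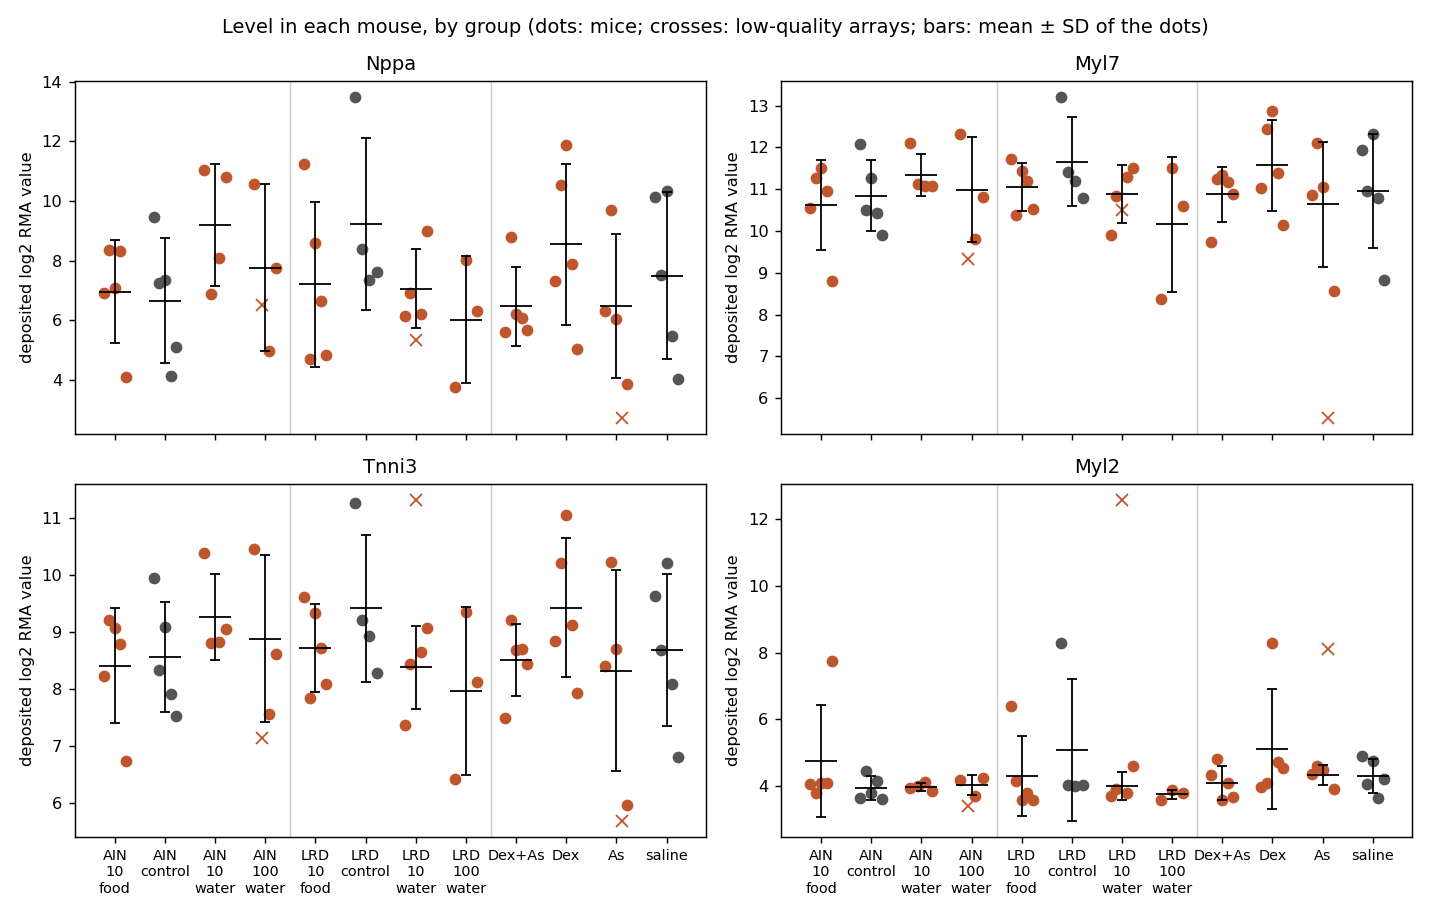
Log2 value of Nppa, Myl7, Tnni3 and Myl2 in each mouse (vertical axis) by group (horizontal axis; 10 and 100 are ppb arsenite); dots are mice, crosses the 3 low-quality arrays, and bars the mean ± SD of the dots. Nppa spreads most within groups, Myl7 and Tnni3 less and in the same mice, while Myl2 stays near 4 except in 4 mice and in 2 of the crosses.

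Dexamethasone is a synthetic glucocorticoid. After its injection Nppa was 7.32, 10.55, 11.89, 7.89 and 5.05 in Dex mice A, B, C, E and F, against 10.13, 7.51, 10.35, 5.47 and 4.05 in saline mice B to F. Myl7 was 11.02, 12.43, 12.87, 11.40 and 10.15 after dexamethasone, against 11.93, 10.96, 12.33, 10.78 and 8.82 after saline. The groups overlapped throughout. The differences, Dex minus saline, were 0.54 to 1.04 and all above 0 (Nppa the largest, turning to −0.18 without the mice high in Myl2, Acta1 or Rag1), with adjusted p of 0.702 to 0.948 (limma), and no member passed although 1.14% of all probe sets did. Leaving out saline F took the median difference of the members to 0.21 and leaving out Dex C took it to 0.29, against 0.67.

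After arsenite injection Nppa was 6.32, 9.70, 6.04 and 3.85 in As mice A, B, C and F, against 4.05 to 10.35 in the 5 saline mice. Myl7 was 10.87, 12.11, 11.04 and 8.56, against 8.82 to 12.33. Mouse F alone lay below every saline mouse in both genes. The differences, As minus saline, ran from −1.02 for Nppa to 0.00 for Ryr2 (adjusted p 0.938 or more, limma), and 0% of all probe sets were called. The median of the members was −0.29, and it was 0.38 without As F.

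After both agents Nppa was 5.61, 8.79, 6.20, 6.06 and 5.68 in Dex+As mice A, C, D, E and F. Myl7 was 9.74, 11.25, 11.34, 11.18 and 10.89 in the same mice. In Nppa these mice were closer to each other than those of any other injected group, with an SD of 1.32 for Nppa, against 2.71 in Dex, 2.41 in As and 2.79 in saline mice. Against saline the differences were −1.03 for Nppa and −0.36 to 0.25 for the others, and 1.26% of all probe sets were called. Against Dex they were −2.07 for Nppa and −0.97 to −0.64 for the others, all below 0, and 0% of all probe sets were called. Against As they were −0.09 to 0.40, with 1.53% of all probe sets called. No member passed in any of these comparisons (smallest limma adjusted p 0.932, with 0 members at an unadjusted p under 0.05). The interaction of the agents was −1.05 to −0.28 over the 10 genes, with adjusted p = 1 and 0% of all probe sets called.

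The injected controls were set against the uninjected ones. Saline minus AIN control was 0.84 for Nppa and −0.07 to 0.24 for the others (limma adjusted p = 0.999, 0 members at an unadjusted p under 0.05), against 0.00222% of all probe sets. In the order of the 12 group means, neighbours differed by at most 0.78 for Nppa and 0.46 for Myl7, where the smallest SD within a group was 1.32 and 0.51. For Myh6 and Pln the widest step, 0.58 and 0.68, exceeded the smallest SD, 0.53 and 0.49. For Nppa the order ran from LRD 100 ppb water at 6.02 to LRD control at 9.22. Over all 15 tested contrasts 0 of the 10 members were called, and 2 of 150 tests had an unadjusted p under 0.05. Groups overlapped for all 10 members in all 13 comparisons, while 0.429% to 4.55% of all probe sets did not overlap in them. The intervals are wide: the narrowest reached 1.27 to either side of the estimate for Myl7, 0.85 for Actc1 and 2.80 for Nppa. Differences smaller than these could not be called with these group sizes. Larger ones could go uncalled too, since the intervals are not adjusted for the number of probe sets and the calls are. For Pln and Myh6 in the LRD 100 ppb water comparison the interval left out 0 and neither gene was called. The smallest difference that could be called was not worked out.

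**Figure D3:**
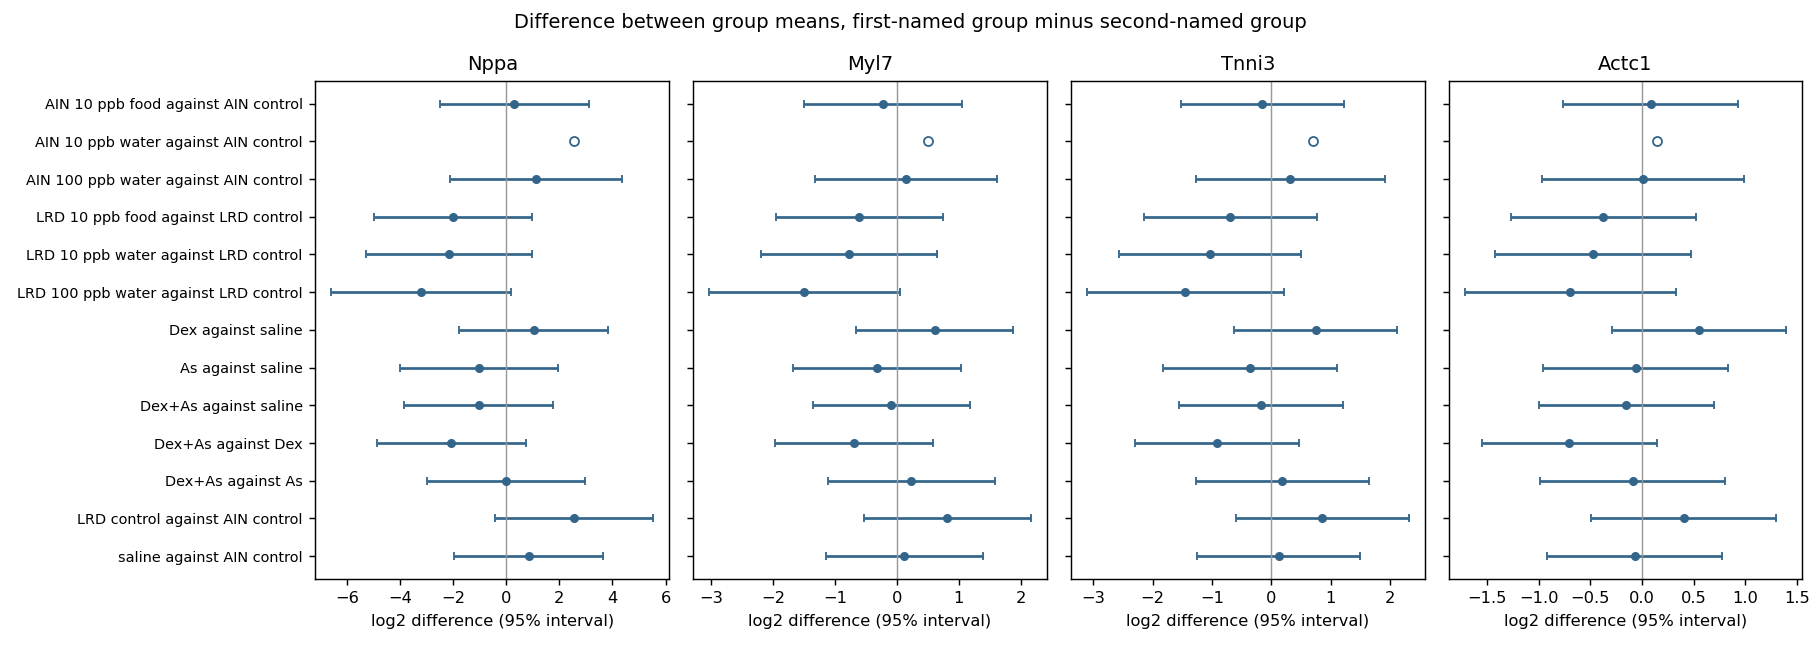
Difference between group means in log2 units (horizontal axis, first-named group minus second-named group) with its 95% interval from limma, for Nppa, Myl7, Tnni3 and Actc1 in 13 comparisons (rows); the AIN 10 ppb water row, an open circle with no interval, is a description. All 12 intervals shown for each gene include 0, and the axes differ in scale between genes.

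The arrays fall into 5 sets of 11 by the first part of their raw array names, and each set mixes groups. Within sets, LRD control exceeded AIN control in Nppa in 3 of 3 sets (by 0.39 to 9.36), and As lay below saline in 2 of 2 sets (differences of −4.03 to −0.52). Dex+As lay below Dex in 3 of 4 sets. The other tested Nppa comparisons with more than 1 set changed sign between sets. Each set holds few mice of a group. The 9.36 is LRD control A against AIN control E alone, and the −4.03 is As A against saline D alone. Among the other members LRD control exceeded AIN control in 3 of 3 sets for Myl7 and Tnnt2 but in 1 of 3 for Tnni3. The correlation of Myl7 with each other member was between 0.797 (Pln, in 1 set) and 0.997 within the sets.

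The members varied together from mouse to mouse. Over the 52 mice, with each group centred on its mean, the 45 pairs of members correlated with a median r of 0.93 and a range of 0.81 (Nppa with Actc1) to 0.99 (Myl4 with Tnni3). Pairs of atrial genes had a median of 0.94, pairs of an atrial and a shared gene 0.93 and pairs of shared genes 0.93. Among the atrial genes Myl7, Myl4 and Sln correlated with each other at 0.98 to 0.99 and with Nppa at 0.86 to 0.90. Of the shared genes, Tnni3 and Tnnt2 correlated with these light chains and Sln at 0.98 to 0.99, and Actc1 at 0.90 to 0.93. These are descriptions over mice whose RNA was measured on the same arrays. Myl7 and Nppa had r = 0.87 and rho = 0.85 over the 52 mice, and r = 0.83 without the 2 mice farthest from the median of Nppa.

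They differed in how far they moved. Per log2 unit of Myl7, within groups, Nppa moved by 1.90, Sln by 1.23, Tnni3 by 1.06, Myl4 by 0.99, Pln by 0.98, Myh6 by 0.97, Tnnt2 by 0.92, Ryr2 by 0.73 and Actc1 by 0.60. Nppa also scattered most about this line, with an SD of 1.04, against 0.13 for Myl4 and 0.19 for Tnni3. In 8 of 52 mice Nppa did not pass 5, while Myl7 was above 8 in all 52. In 9 mice Nppa was above 10.

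**Figure D4:**
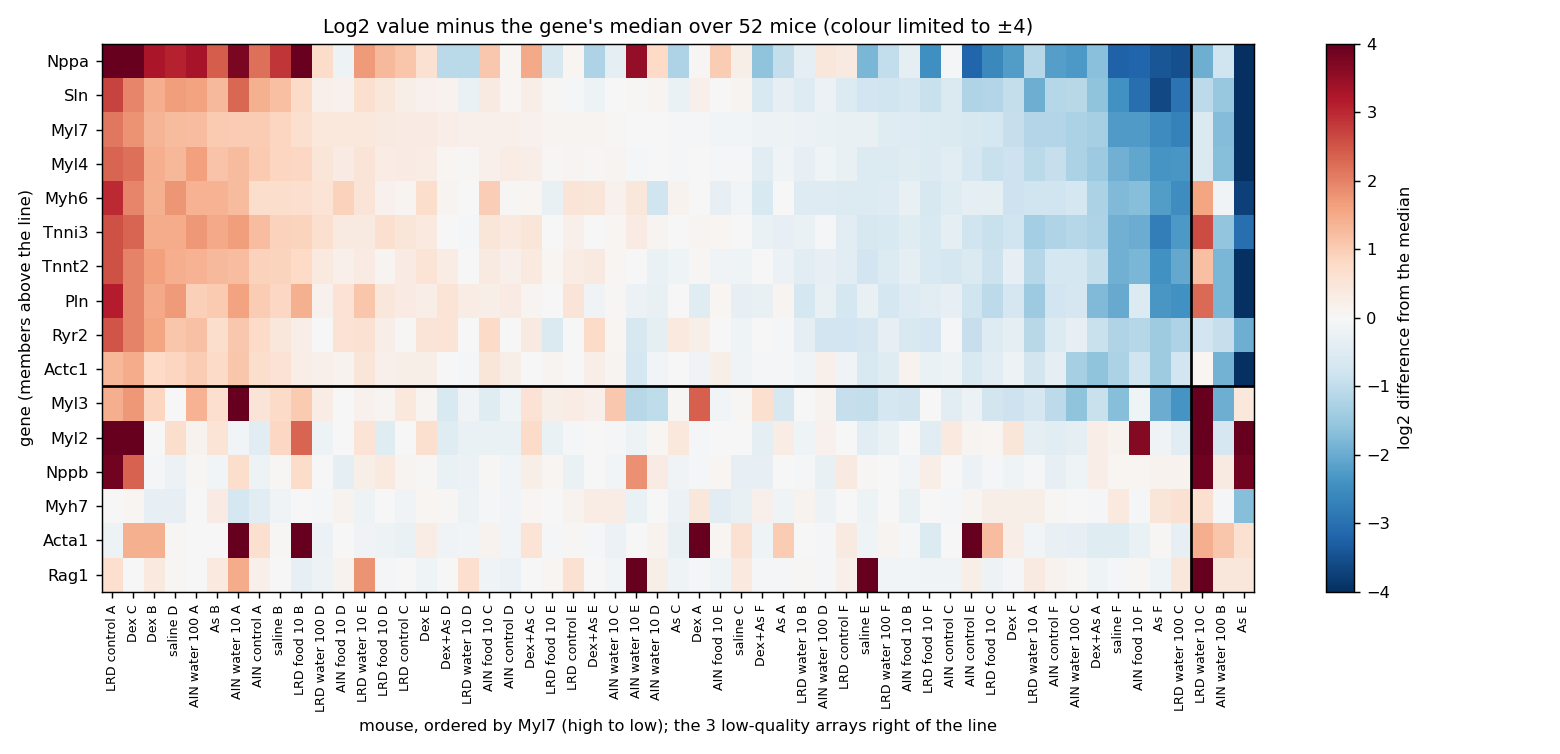
Log2 value minus the gene's median over 52 mice (colour, red above and blue below, limited to ±4) for the 10 members above the horizontal line and 6 comparison genes under it, with mice as columns in falling order of Myl7 and the 3 low-quality arrays right of the vertical line. The members form 1 gradient from LRD control A at 13.21 in Myl7 to LRD 100 ppb water C at 8.38, while Myl2, Nppb, Acta1 and Rag1 are raised in single mice.

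Because the members moved together, promoter letters are shown for the gene that moved most, the atrial light chain and the gene that moved least. Nppb, the natriuretic peptide that followed them less (r = 0.39 to their mean, groups centred), is shown beside them. The windows run from 250 bases before to 50 after the start of each gene (RefSeq, GRCm38.p6), read 5′ to 3′ along the gene. RefSeq windows were matched by symbol for 9 of the 10 members, and Sln had none. Capitals mark matches to motifs searched on both strands: TGATAA, a core site of GATA factors, with its variant spelled AGATAA; the NKX2-5 type site TNAAGTG; the M-CAT element of TEAD factors, CATTCC; the letters TATAAA of a TATA box; and, by name alone, the CArG box of serum response factor and the MEF2 site.
Nppa promoter window, chr4:148000472-148000771, + strand: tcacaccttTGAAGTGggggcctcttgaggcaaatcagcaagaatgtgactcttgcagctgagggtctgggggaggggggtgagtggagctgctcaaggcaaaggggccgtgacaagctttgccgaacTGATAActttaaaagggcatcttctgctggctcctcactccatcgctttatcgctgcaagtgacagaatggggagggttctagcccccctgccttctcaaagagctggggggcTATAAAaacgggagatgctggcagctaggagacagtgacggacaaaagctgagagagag
Myl7 promoter window, chr11:5898733-5899032, - strand: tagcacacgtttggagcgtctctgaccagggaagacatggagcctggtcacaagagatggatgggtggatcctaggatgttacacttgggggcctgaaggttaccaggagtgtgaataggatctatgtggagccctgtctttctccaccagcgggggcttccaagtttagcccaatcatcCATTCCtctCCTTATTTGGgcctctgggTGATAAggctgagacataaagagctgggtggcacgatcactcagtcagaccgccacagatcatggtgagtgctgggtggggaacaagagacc
Actc1 promoter window, chr2:114052826-114053125, - strand: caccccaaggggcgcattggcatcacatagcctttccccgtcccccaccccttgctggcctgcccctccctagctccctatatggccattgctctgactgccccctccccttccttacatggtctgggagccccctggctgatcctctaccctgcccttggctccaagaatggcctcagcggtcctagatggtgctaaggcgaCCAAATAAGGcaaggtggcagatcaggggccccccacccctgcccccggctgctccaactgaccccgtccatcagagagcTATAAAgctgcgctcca
Nppb promoter window, chr4:147985650-147985949, + strand: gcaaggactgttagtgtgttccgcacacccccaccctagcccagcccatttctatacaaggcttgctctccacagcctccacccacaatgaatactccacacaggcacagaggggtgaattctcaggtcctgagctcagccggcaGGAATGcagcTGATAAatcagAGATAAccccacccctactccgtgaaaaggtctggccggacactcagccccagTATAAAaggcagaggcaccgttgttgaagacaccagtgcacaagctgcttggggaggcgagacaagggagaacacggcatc

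The Nppa window held the NKX2-5 type site, the GATA site and, at −9 from the start, the letters TATAAA, and the Myl7 window the M-CAT element next to a CArG box and then the GATA site. The Actc1 window held a CArG box and, at +34, after the start, TATAAA. The GATA site TGATAA also stood in the windows of Pln and Nppb, and 9.05% of all 32851 promoter windows held it, so 3 of 9 members with a window (Nppa, Myl7 and Pln) stand beside that share. The CArG box was in 1.63% of all windows and in those of Myl7 and Actc1. The variant AGATAA was in 11.2% of all windows, the NKX2-5 type site in 11.5%, the M-CAT element in 14.7%, TATAAA in 13.6% and the MEF2 site in 3.19%, the last in no member's window. The windows of Myl4, Tnni3 and Ryr2 held none of these motifs. Nppb, which shares the GATA site with Nppa, was dim in most mice, with a median of 3.64. It followed the members less than Nppa did, and the part of the GATA site in this was not tested. A match is a run of letters and says nothing of binding in these lungs.

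Ventricular type genes followed the members little, apart from Myl3. Myl2 was at 3.57 to 4.89 in 48 of 52 mice, with a median of 4.04, while Myl7 in the same mice spanned 8.38 to 12.43. Over these 48 mice Myl2 and Myl7 had r = 0.26 and rho = 0.18. Irx4, a ventricular transcription factor, stayed between 2.87 and 3.97 in all 52. Myh7, the beta heavy chain, stayed between 6.04 and 7.35 with r = −0.50 to the mean of the members. Nppb stayed between 3.29 and 7.50, above 5 in 3 mice, with r = 0.39. The mean of the 5 ventricular type genes had r = 0.59 with groups centred. Myl3, which slow skeletal muscle also uses, ranged from 3.64 to 11.37 and had r = 0.67. In Myl3 the highest mouse was AIN 10 ppb water A, with its high Acta1.

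Myl2 was above 5 in 4 of the 52 mice. LRD control A had Myl2 at 8.29 and Nppb at 7.50, and Dex C had 8.29 and 5.99. These 2 mice were also the highest in all 4 atrial genes apart from Sln, in which AIN 10 ppb water A stood above Dex C. LRD 10 ppb food B, with Acta1 at 12.00, had Myl2 at 6.39. AIN 10 ppb food F had Myl2 at 7.74 with Nppb at 3.72, Acta1 at 3.61 and low atrial genes, Nppa at 4.10 and Myl7 at 8.80. So high Myl2 occurred with the highest and with nearly the lowest levels of the atrial genes.

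The low-quality array LRD 10 ppb water C showed the clearest parting of the gene types. Myl2 read 12.58, against 3.71 to 4.62 in the other 4 mice of its group, Myl3 11.96, against 5.32 to 6.17, and Nppb 7.52, against 3.42 to 3.87. Of the shared genes Tnni3 read 11.32, against 7.37 to 9.07, Pln 9.69, against 5.98 to 8.54, Myh6 10.96, against 8.59 to 9.92, and Tnnt2 10.73, against 8.39 to 9.84. The atrial genes lay inside or below the range of the other 4 mice, Myl7 at 10.51 (9.91 to 11.50), Myl4 at 9.08 (8.57 to 10.17), Sln at 8.30 (7.38 to 9.98) and Nppa at 5.33 (6.14 to 8.98). Tnni3, Myl2, Myl3 and Nppb were higher there than in any of the 52 mice. The shared genes Actc1, at 11.01, and Ryr2, at 3.94, lay inside the range of the other 4. This array also read Rag1 at 9.02. Its quality is low, and the part of that in these readings was not tested. The low-quality array As E read 2.73 for Nppa and 5.53 for Myl7 but 8.10 for Myl2 and 7.50 for Nppb, and its interquartile range was 1.80.

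**Figure D5:**
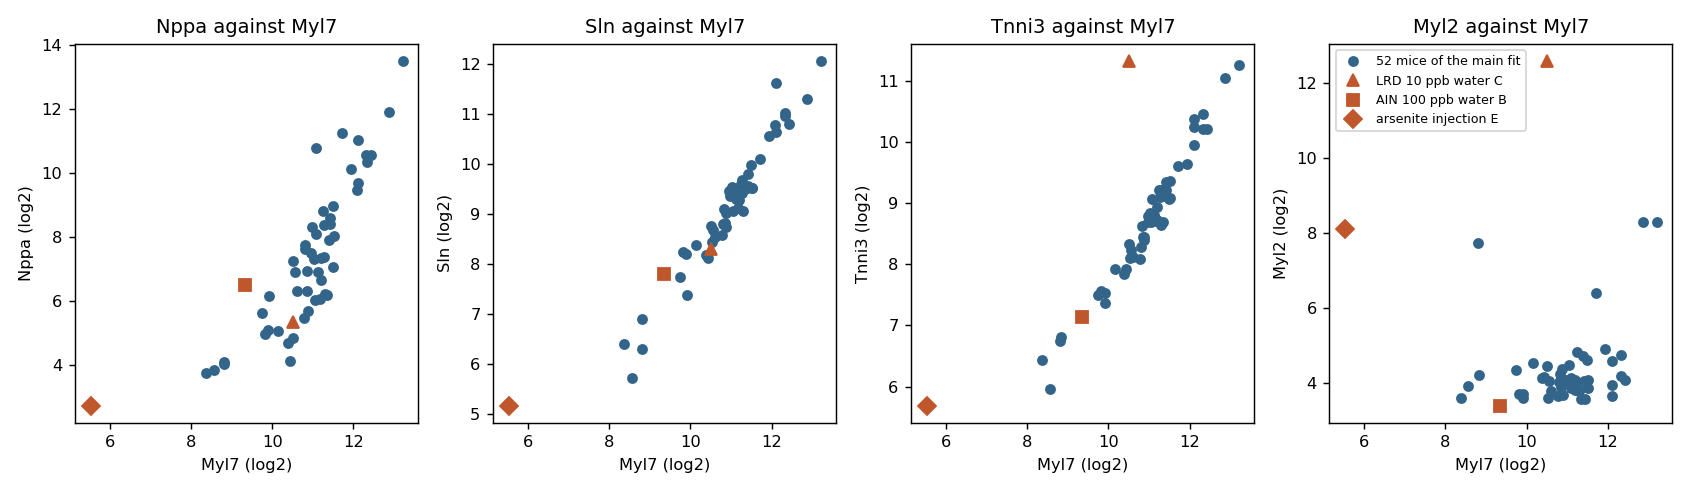
Nppa, Sln, Tnni3 and Myl2 (vertical axes, log2) against Myl7 (horizontal axis, log2), with 1 dot per mouse for 52 mice and a symbol each for the 3 low-quality arrays. Sln and Tnni3 lie on a narrow band, Nppa on a steeper and wider one, and Myl2 near 4 over most of the Myl7 range; LRD 10 ppb water C is off the band in Tnni3 and Myl2.

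Other atrial type genes from a fixed list of 7 were mostly dim. Of the 6 measured, Hamp (hepcidin) ranged over 4.13 to 9.64 with r = 0.88 to the mean of the members, and Kcnj5, a subunit of the acetylcholine-gated potassium channel, over 3.53 to 6.68 with r = 0.84. Bmp10, a growth factor of the right atrium, stayed at 3.13 to 4.01, and Kcnj3, the partner subunit, at 3.10 to 4.37. No gene of the atrial or ventricular lists was called in any contrast. None of the measured genes marks the pulmonary vein as such, so these data show atrial type heart muscle genes in lung and not which vessel or chamber carried them.

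The rest of the contractile apparatus moved with the members. Of 17 sarcomere and Z disc genes 16 had r above 0.5 to the mean of the members, with a median of 0.91. Smpx ranged widest, 3.33 to 10.43, and Tnnc1, cardiac and slow troponin C, ranged over 5.59 to 10.60. The exception was Nebl, at 10.41 to 11.73 with r = −0.18. It was also the only gene of that list called, at 0.48 higher in Dex than in saline mice (SE 0.12, adjusted p = 0.0274) and 0.60 higher in Dex+As than in saline mice (SE 0.12, adjusted p = 0.00313, limma). Of 9 genes for the energy supply of striated muscle all 9 had r above 0.5, with a median of 0.89, among them Mb (myoglobin), at 6.42 to 12.34. Of 10 calcium handling genes 6 had r above 0.5. Atp2a2, the calcium pump that Sln and Pln inhibit, ranged over 9.46 to 12.70, and Fkbp1b, at 5.87 to 7.33 with r = −0.06, was called 0.47 higher in Dex+As than in saline mice (SE 0.13, adjusted p = 0.0482) and 0.62 higher than in As mice (SE 0.13, adjusted p = 0.00657).

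Cardiac transcription factors followed less closely. Of 11, 3 had r above 0.5, Tbx20 (0.84, at 2.62 to 5.66), Shox2 (0.71) and Myocd (0.53). Nkx2-5 stayed at 4.07 to 5.79 and Gata4 at 3.15 to 4.62, while Tbx5 and Gata6, which lung cells also use, were bright and had r of 0.09 and 0.17. Of 5 measured genes of excitation none had r above 0.5, and Gja5 and Kcnj2 did not pass 5 in any of the 52 mice. None of the transcription factor, excitation and energy genes was called in any contrast.

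Of all other genes with a probe set of their own, the 10 most like the mean of the members were Mybphl (r = 0.98), Csrp3 (0.97), Fabp3 (0.96), Smpx (0.96), Mb (0.96), Tnnc1 (0.96), Casq2 (0.96), Atp2a2 (0.96), Myoz2 (0.95) and Ckmt2 (0.95), with groups centred, over 52 mice. Of these 10, 9 stood in the fixed lists of heart muscle genes. Mybphl, the first, is a myosin-binding protein gene of the atria and was in none of them.

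Markers of other tissues were set beside the members as whole lists. The mean of 14 skeletal muscle genes ran from 3.61 to 10.09 over the 52 mice and had r = 0.25 to the members with groups centred. Without centring it had r = 0.27 but rho = 0.69, so by rank it followed the members. It was above 6 in 4 mice, LRD 10 ppb food B (10.09), AIN 10 ppb water A (9.35), AIN control E (7.95) and Dex A (6.47), whose member means were 9.85, 10.43, 7.83 and 8.80. The 7 measured fat genes had a mean of 4.79 to 10.48 with r = 0.52 (rho = 0.65 without centring), 7 smooth muscle genes 7.46 to 9.80 with r = 0.66 (rho = 0.65), and 6 thymus genes 3.99 to 9.47 with r = −0.04. The 6 cartilage genes had r = 0.34 and 5 mesothelium genes r = −0.12. The lung's own lists moved little or the other way, with r = −0.31 for 6 alveolar epithelial genes, at 12.44 to 13.38, and r = −0.25 for 5 endothelial genes. The 4 airway genes had r = 0.71, mostly through Bpifa1, a secreted protein gene of the upper airway, which ranged over 3.89 to 13.87 and had r = 0.74. Without Bpifa1 the other 3 had r = 0.38. What part these tissues have in the spread of the members was not tested.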

How the data were processed

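Lung RNA from 55 mice was hybridised to Mouse 430 2.0 arrays, 1 array per mouse. The authors deposited log2 values made by RMA, which corrects background, normalizes all arrays to 1 distribution and summarises probes. The deposited values still differed somewhat between arrays. Their medians were 4.245 to 4.369 in the 52 arrays and 4.39 to 4.829 in the 3 low-quality ones. Groups were taken from the labels. Of 45101 probe sets, 64 controls were left out. A linear model with 1 mean per group was fitted with limma 3.58.1 in R 4.3.3 to the 52 arrays of good quality (40 residual degrees of freedom), and p-values were adjusted by Benjamini-Hochberg over all 45037 probe sets at 0.05. The method was tested on simulated data. The planted changes were in probe sets of narrower spread than the members, so that test does not show what could be detected for the members. Each gene is given by its brightest probe set. The alternatives were array set or letter as a block, array weights, all 55 arrays, separate fits, other scalings, a filter on dim probe sets, the mean of a gene's probe sets and leaving out each mouse. The members and lists were chosen with earlier results of these data known. Named genes are the members, called genes of the lists and the 10 genes most like the members.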

Additional observations from a re-analysis of the deposited data

Results flagged for a closer look

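In 8 of 110 sets of values (10 genes in 11 groups of 4 or 5 mice), 1 mouse stood far from the others of its group by Dixon's test. Here the 3 low-quality arrays were counted in their groups, and none of the flags fell in those groups. The 10 genes moved together across mice, so the sets are not separate trials. Their share, 7.27%, therefore cannot be set against a chance rate. The flags in the AIN 10 ppb water group are a description, since that group led to the choice of genes. The LRD 100 ppb water group, with 3 mice, was not tested. AIN 10 ppb water A was high in Myl7 at 12.106 (others 11.082 to 11.118), in Myl4 at 10.906 (9.561 to 9.759), in Sln at 11.628 (9.311 to 9.444) and in Tnni3 at 10.382 (8.806 to 9.061), and this mouse had Acta1 at 12.35. Dex+As A was low in Myl7 at 9.741 (10.886 to 11.338) and in Actc1 at 9.342 (10.904 to 11.221). Dex+As C was high in Nppa at 8.794 (5.613 to 6.199). AIN 10 ppb food F, with Myl2 at 7.74, was low in Actc1 at 10.146 (11.076 to 11.428).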

How the results depend on the processing

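No member was called under any of 308 alternatives over the 15 tested contrasts, and the smallest adjusted p of any member under any of them was 0.177 (limma, Dex+As against As with all 55 arrays). The median difference of the members changed sign in 21 of 308 alternatives and a single member's difference in 234 of 3080, all of differences that were not called. With all 55 arrays the median for As against saline was −1.32, against −0.29 without the low-quality arrays, and that for Dex+As against As was 0.89, against 0.12. Leaving out the 9 mice high in Myl2, Acta1 or Rag1, an alternative chosen after seeing the data, took the Nppa difference to 0.50 for LRD against AIN control, to −0.18 for Dex against saline and to −1.77 for LRD 100 ppb water. The labels do not say that the letters pair mice. Mice of the same letter deviated together with a median r of 0.01 (206 pairs), against −0.01 for other letters. Mice of the same array set deviated together more, with a median r of 0.19 (239 pairs), and with the array set as a block 0 members were called, the Nppa difference being −1.55 for LRD 10 ppb water and −0.60 for As against saline. With the letter as a replicate block 0 members were called, and the median difference was −1.46 for LRD 100 ppb water, −1.56 for LRD 10 ppb water and −0.10 for AIN 100 ppb water. Groups of 3 to 5 mice and the spread between mice limit what can be seen. Nothing in the labels says more of the mice than that they are separate animals.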
